A study of Caenorhabditis elegans with 10 samples.

Results

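CEH-60 sites that recurred in 2 libraries but carried a peak of neither UNC-62 nor PQM-1 were described across the genome of the nematode C. elegans. The sites are the nuclear peaks of CEH-60 replicate 1 that shared 1 bp or more with a peak of replicate 2 and with no peak of UNC-62 or of PQM-1. They number 295 of the 3011 replicated sites, of the 9008 nuclear peaks of replicate 1 and of the 40986 peaks in the 8 lists of the series. The other 2716 replicated sites had UNC-62 alone (135), PQM-1 alone (1172) or both partners (1409).

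CEH-60 belongs to the PBX family of homeodomain proteins, which bind DNA together with homeodomain proteins of the Hox and MEIS families. UNC-62 is a MEIS protein of the worm, and PQM-1 is a zinc finger factor of the intestine that responds to stress and insulin signalling. CEH-60 is known in the adult intestine, where it acts with UNC-62 on the yolk protein genes.

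All libraries were chromatin immunoprecipitations with sequencing (ChIP-seq) from whole day 1 adults, so the tissue in which a site was occupied was not measured. CEH-60 came from the allele ceh-60(rhd116), through anti-HA antibodies, in DLS395 (3F10 in replicates 1 and 2, and mIgG1), in DLS396, which also carries gaIs285, and in DLS435, which also carries the deletion pqm-1(ok485). UNC-62 came from DLS396 through anti-GFP. PQM-1 came through anti-FLAG from OP201 (unc-119(tm4063); wgIs201) and from DLS422 (ceh-60(ok1485); wgIs201), in which ceh-60 carries a deletion. UNC-62 and PQM-1 were thus recovered from transgenes and CEH-60 from an allele of its own gene, and the sources used here do not name the sequences that drive gaIs285 and wgIs201. Replicate 1, mIgG1 and both DLS396 libraries were crosslinked in 2% formaldehyde over 30 min and replicate 2, DLS435, OP201 and DLS422 in 1% over 5 min. The replicates therefore differ in crosslinking, and no DLS395 library with 3F10 repeats the same one.

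The lists held 9010 peaks for replicate 1, 4431 for mIgG1, 2053 for UNC-62 and 8993 for DLS396 CEH-60 after long crosslinking. After short crosslinking they held 3430 for replicate 2, 2048 for DLS435, 6001 for PQM-1 in OP201 and 5020 in DLS422. Read depth is unknown, and a site without a peak in a list is one where none was called, not one shown to be free of the protein. Each peak has a fold enrichment, the authors' value for its summit over the local background, which is read here only within a list. Each group beside the replicates was 1 library, so conditions were compared without a p-value. The Wilson 95% intervals of shares and Newcombe 95% intervals on differences of shares cover counting error only.

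The strongest site with neither partner lay at V 7825666 to 7826369. Its fold was 13.6 in replicate 1 and 3.20 in replicate 2, 14.9 with mIgG1 and 16.8 in DLS396. It had no peak in DLS435 or DLS422, no end of a protein-coding gene lay within 1000 bp of its summit, and the nearest PQM-1 peak was 28204 bp away. The next by fold lay inside srap-1 (II 11207524 to 11208090). There the fold was 13.1 in replicate 1, 2.25 in replicate 2, 12.5 with mIgG1 and 17.4 in DLS396. The third lay inside frpr-7, a gene of the neuropeptide receptor family (X 17574277 to 17574983), at 12.8, 3.13, 13.9 and 19.03 in the same order of lists. The rule and the order by replicate 1 fold fix their presence in both replicates and their strength in replicate 1. In lists that the rule did not use, each was also strong with mIgG1 and in DLS396 and had no peak called in DLS435. The mIgG1 and DLS396 lists share the long crosslinking of replicate 1, while DLS435 had the short one. Genotype and crosslinking thus differ together in this contrast.

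**Figure D1:**
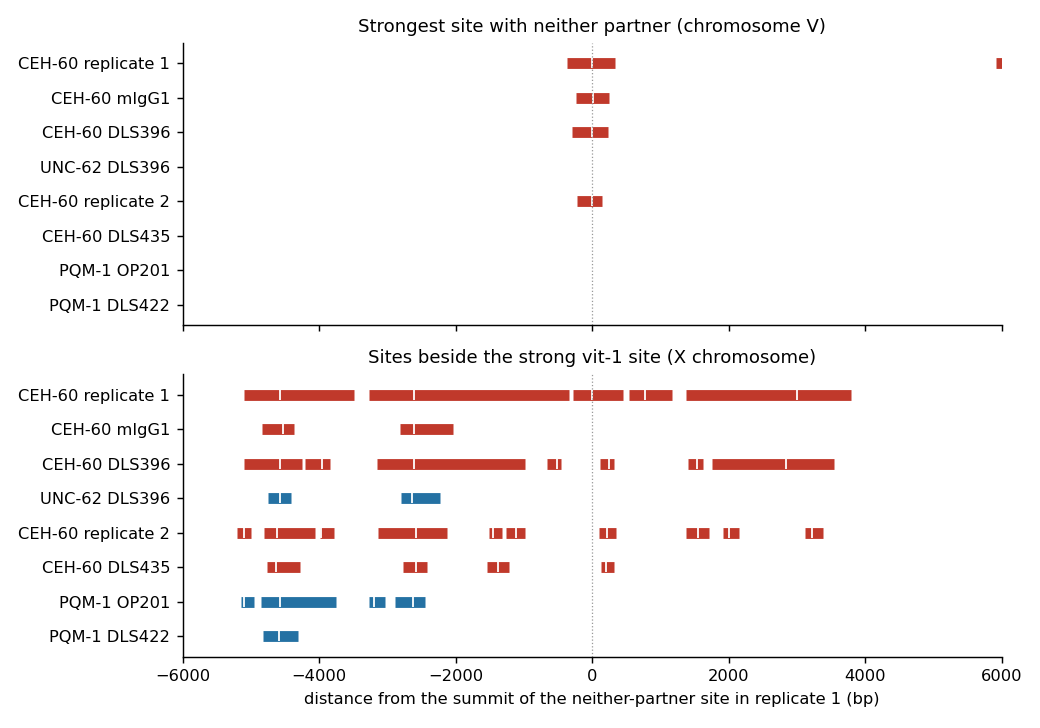
Peak intervals in the 8 lists, drawn by distance in bp from the replicate 1 summit of a site with neither partner, with white ticks at summits, CEH-60 lists in red and the other factors in blue. The strongest site had a peak in 4 CEH-60 lists and in no other list, while the site inside vit-1 lay among a chain of CEH-60 intervals beside the strong site that both partners share.

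The sites were chosen by the peak calls of replicates 1 and 2, UNC-62 and OP201 PQM-1, so their folds in both replicates are a description, with no test. Replicate 1 folds ran from 1.94 to 13.6 with a median of 7.19, against 10.7 for sites with UNC-62 alone, 6.02 with PQM-1 alone and 10.2 with both. By fold among the 9008 nuclear peaks of replicate 1, the ranks of the 295 ran from 262 to 8998, with a median of 2139. In replicate 2 the median fold was 2.24 (range 1.54 to 3.76), against 2.42, 2.21 and 2.67. The sites had a median width of 487 bp, and the nearest replicate 2 summit lay a median of 20 bp from that of replicate 1. At the limits of the rule, members with the least overlap with replicate 2 shared 1 bp (X 16374674 to 16374889), 2 bp (by clec-196 and hsp-1) and 4 bp (by dgn-1), and the members nearest to a partner peak lay 23 bp away, inside egl-27 and inside tps-1. Just outside, a peak by lmtr-3 and strt-7 missed replicate 2 by 2 bp, and a site at X 15050364 to 15050686 overlapped a partner by 9 bp.

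**Figure D2:**
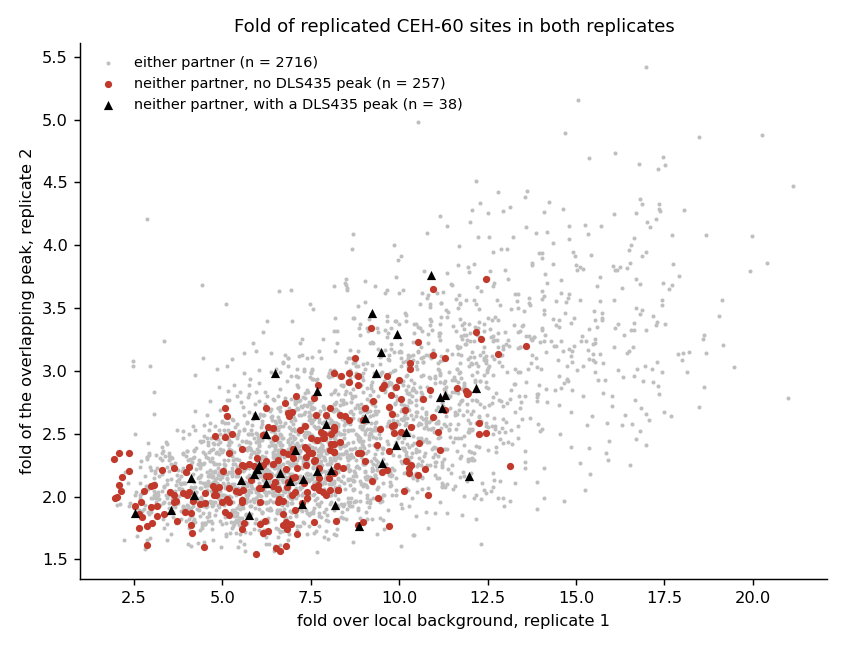
Fold in replicate 1 against the highest fold of the overlapping replicate 2 peak for the 3011 replicated sites. Sites with neither partner (circles and triangles) lie between 1.94 and 13.6 on the horizontal axis, and the 38 with a DLS435 peak (triangles) are spread over most of that range.

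Because the rule bars overlap with a partner peak, the distances to partner peaks are a description, with no test. The nearest partner peak lay a median of 6197 bp away (interquartile range 1933 to 15439 bp), and 30 of 295 sites had one within 500 bp and 78 within 2000 bp. The nearest UNC-62 peak was a median of 14119 bp away, against 9872 bp at sites with PQM-1 alone. The nearest PQM-1 peak was a median of 7158 bp away, against 4951 bp at sites with UNC-62 alone.

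Recovery with the antibody mIgG1, in the same strain, was not used by the rule. Of the 295 sites, 244 had an mIgG1 peak, which is 82.7% (78.0 to 86.6%), against 45.3% of all replicate 1 peaks. Sites with PQM-1 alone had an mIgG1 peak less often than sites with neither partner, at 57.3% (difference 25.4 points, interval 19.9 to 30.2). Sites with UNC-62 alone had one more often, at 97.8% (difference -15.1 points, -20.02 to -9.41), as did sites with both partners, at 97.7% (difference -14.9 points, -19.7 to -10.9). Within the mIgG1 list the peaks at sites with neither partner had a median fold of 6.80, against 3.71 at sites with PQM-1 alone, 7.96 with UNC-62 alone and 5.78 with both, counting sites that had a peak. The 51 sites without an mIgG1 peak were weaker in replicate 1 (median fold 3.65, against 7.72 for the 244), and all 80 sites in the third quartile of replicate 1 fold and all 31 in the highest had one.

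CEH-60 in DLS396, the strain from which UNC-62 was recovered, was found at 285 of the sites (96.6%, 93.9 to 98.1%), against 89.9% of all replicate 1 peaks. Sites with either partner had one more often, at 99.5% (difference -2.87 points, -5.62 to -1.297). The median DLS396 fold was 9.48 at sites with neither partner, against 7.77 with PQM-1 alone, 17.4 with UNC-62 alone and 14.4 with both. In this strain CEH-60 had called peaks at almost all sites of the classes without UNC-62 (98.8% with PQM-1 alone). Median folds in those classes were lower than in the classes with UNC-62, as they also were in replicate 1. The 10 sites with neither partner that lacked a DLS396 peak were weak in replicate 1 (folds of 1.94 to 2.79).

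DLS435, without pqm-1, held few of these sites. A CEH-60 peak was called in DLS435 at 38 of 295 sites, which is 12.9% (9.53 to 17.2%), against 19.3% of all replicate 1 peaks. Replicated sites with either partner had a DLS435 peak in 59.2% of cases (difference -46.3 points, -50.1 to -41.6). The share was 48.9% at sites with UNC-62 alone (difference -36.0 points, -45.0 to -26.7), 37.5% with PQM-1 alone and 78.3% with both. Sites with neither partner thus had the lowest share of the 4 classes. The DLS435 list is shorter than that of replicate 2, and the part of its length in this difference was not tested beyond the strata that follow.

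**Figure D3:**
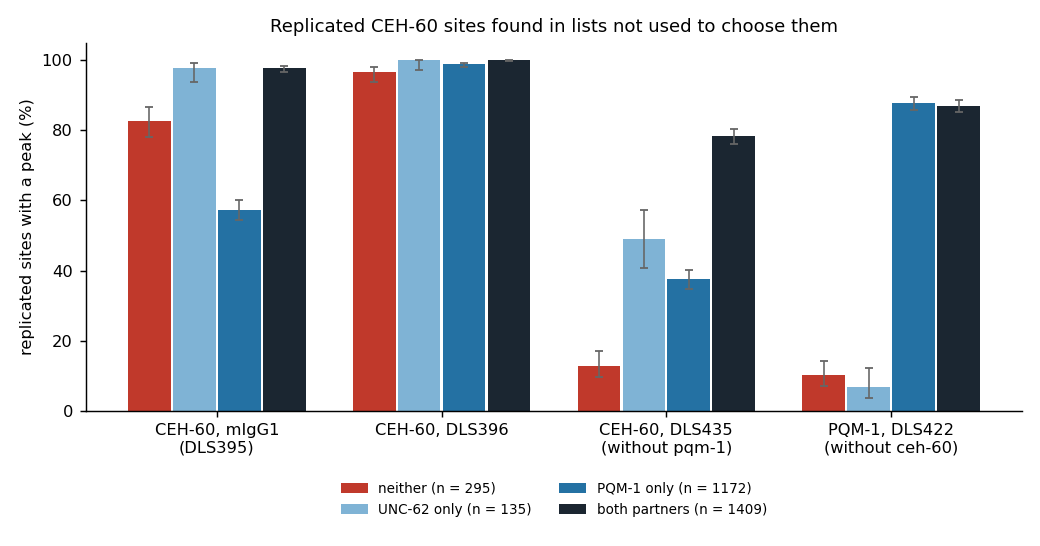
Share of replicated CEH-60 sites with a peak in 4 lists that did not choose them, by partner class, with Wilson 95% intervals. Sites with neither partner reach 82.7% with mIgG1 and 96.6% in DLS396 but 12.9% in DLS435, where the other classes reach 37.5 to 78.3%.

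The low share in DLS435 was not limited to weak sites. Among replicated sites in the highest quartile of replicate 2 fold (2.81 to 5.42), 8 of 38 sites with neither partner had a DLS435 peak (21.1%), against 676 of 715 with either partner (94.5%, difference -73.5 points, -83.6 to -58.1). In the same quartile 27 of 32 sites with UNC-62 alone had one, and in the lowest 7 of 30. By replicate 1 fold, sites with UNC-62 alone had one at 46 of 71 in the highest quartile and 0 of 7 in the lowest. Strength was not matched within the highest quartiles. Sites with neither partner ended at folds of 3.76 in replicate 2 and 13.6 in replicate 1, and partnered sites at 5.42 and 21.1. In the highest quartile of replicate 1 fold the counts with neither and with either partner were 6 of 31 and 660 of 722 (difference -72.1 points, -82.4 to -55.0). In the lowest quartile of replicate 1 fold they were 10 of 91 and 181 of 662 (difference -16.4 points, -22.4 to -7.65). By quartile of replicate 1 fold the share went from 10.99% to 19.4% at sites with neither partner and from 27.3% to 91.4% at partnered sites, and by quartile of replicate 2 fold the highest shares were 21.1% and 94.5%.

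**Figure D4:**
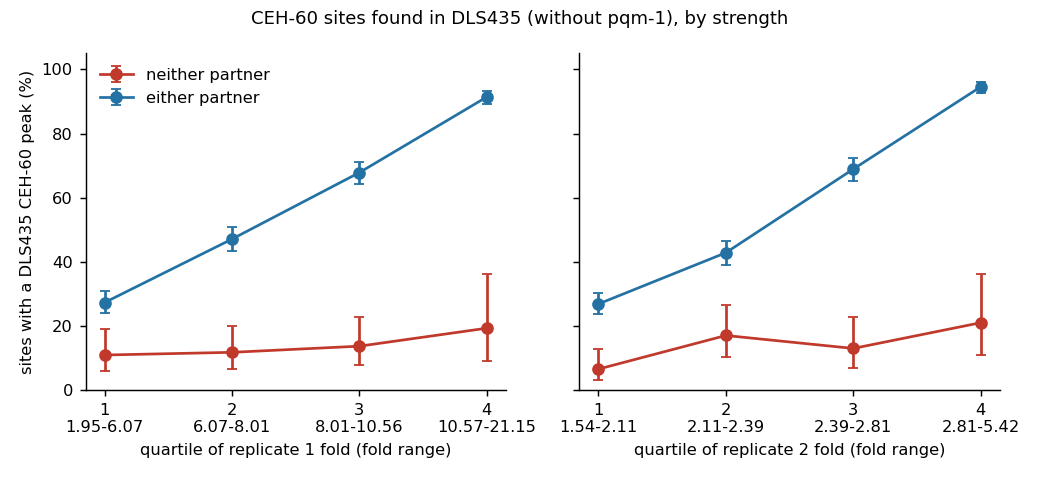
Share of replicated CEH-60 sites with a DLS435 peak, by quartile of replicate 1 fold (left) and replicate 2 fold (right), with Wilson 95% intervals. From the lowest to the highest quartile of replicate 2 fold the share went from 26.9 to 94.5% with either partner and from 6.60 to 21.1% with neither.

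Sites of high replicate 2 fold were among those without a DLS435 peak. At I 2278119 to 2278889, outside every protein-coding gene, the fold was 12.4 in replicate 1, 3.73 in replicate 2, 15.1 with mIgG1 and 20.7 in DLS396, and DLS435 had no peak. The site at an end of C13B9.2 and inside copd-1, which encodes a coatomer subunit (III 6622840 to 6623444), had 10.96, 3.65, 12.2 and 14.9 in the same order and none in DLS435. The intragenic site of fln-1, the filamin gene (IV 368033 to 368489), had 9.19, 3.34, 9.46 and 11.9, again with none in DLS435. These are 3 of the 5 sites of highest replicate 2 fold, and the other two, inside edc-4 and by math-16, had a DLS435 peak.

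The strongest by DLS435 fold of the 38 sites with a peak there lay inside edc-4, a decapping factor gene (I 3344436 to 3344986), with folds of 10.9 in replicate 1, 3.76 in replicate 2, 12.02 with mIgG1, 13.8 in DLS396 and 2.90 in DLS435. Those that followed in DLS435 lay by math-16 (2.62), at an end of dep-1, a receptor tyrosine phosphatase gene (2.60), by baz-2 (2.49) and inside ipla-3, a phospholipase A2 family gene (2.46). Among the 20 strongest replicate 1 sites, DLS435 peaks were found inside gei-1 (2.33), F55D12.2 (2.25), eat-17, a Rab GTPase-activating protein gene (2.00), and immt-1, a gene of mitochondrial inner membrane organization (2.21), and at V 5321058 to 5321810, outside protein-coding genes (2.30). Replicate 1 folds of the 38 sites (median 7.67, range 2.53 to 12.2) overlapped those of the 257 others (median 7.07, range 1.94 to 13.6). Of the 38, 18 lay on the X chromosome (47.4%), against 77 of the 257 (30.0%).

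PQM-1 in DLS422, without ceh-60, gave a further reading of PQM-1 at sites chosen for having none in OP201. Peaks were called at 30 of 295 sites (10.2%, 7.22 to 14.1%), against 42.4% of all replicate 1 peaks. That background includes peaks that overlap OP201 PQM-1, so a lower share at these sites follows in part from the rule. Among the 4037 replicate 1 peaks with neither partner, replicated or not, the share was 6.49%. At sites with UNC-62 alone, which the same OP201 list defines, the share was 6.67% (9 of 135, difference 3.50 points, -2.76 to 8.56). The strongest lay inside daf-12, which encodes a steroid hormone receptor (X 10645145 to 10645472). Its PQM-1 fold was 2.93 in DLS422, and the CEH-60 folds were 5.51 in replicate 1, 2.13 in replicate 2, 7.48 in DLS396 and 2.24 in DLS435. Others lay at I 9297772 to 9298063 (2.70), by sur-7 (2.52), at M03B6.1 and M03B6.5 (2.49) and at X 6795952 to 6796541 (2.49). Sites with a DLS422 peak were mostly weak CEH-60 sites: 21 of 91 in the lowest quartile of replicate 1 fold had one, 8 of 93 in the next, 1 of 80 in the third and 0 of 31 in the highest. The count of 0 of 31 allows a share of up to 9.68%, at 3 counts.

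Over the 5 CEH-60 lists, 31 of the 295 sites were present in all, 220 in 4, 34 in 3 and 10 in the 2 replicates alone. The commonest pattern, at 199 sites, was a peak with mIgG1 and in DLS396 and none in DLS435 or DLS422. Of the sites with either partner, 1459 of 2716 (53.7%) were present in all 5 lists.

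The sites lay inside genes more often than other replicated sites. Summits of 184 of 295 (62.4%, 56.7 to 67.7%) fell between the ends of a protein-coding gene, against 43.2% of all replicate 1 summits. Sites with either partner were inside genes in 38.1% of cases (difference 24.2 points, 18.3 to 29.9). The share was 48.9% for sites with UNC-62 alone (difference 13.5 points, 3.40 to 23.3), 38.8% with PQM-1 alone and 36.6% with both. Protein-coding genes covered 61.9% of bases, so the sites with neither partner fell inside genes about as often as the bases of the genome do, and the other classes less often. Exons and introns were not told apart, since the gene table used here gives gene ends only.

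An end of a protein-coding gene, taken as a summit from 1000 bp outside to 200 bp inside, was present at 102 of 295 sites (34.6%, 29.4 to 40.2%), against 49.2% of all replicate 1 summits. For sites with either partner the share was 51.3% (difference -16.7 points, -22.2 to -10.8), and gene ends by this rule covered 36.2% of bases. In the highest quartile of replicate 1 fold, 6 of 31 sites with neither partner lay at a gene end (19.4%) against 357 of 722 (49.4%, difference -30.1 points, -40.9 to -12.8). In the lowest quartile the interval of the difference spanned 0 (42.9% against 50.3%, -17.8 to 3.49 points). By class, 125 sites were inside a gene and at no end, 59 inside and at an end, 43 outside and at an end, and 68 had no protein-coding gene by either measure. The nearest gene end lay a median of 1052 bp from the summit, against 695 bp for sites with either partner.

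**Figure D5:**
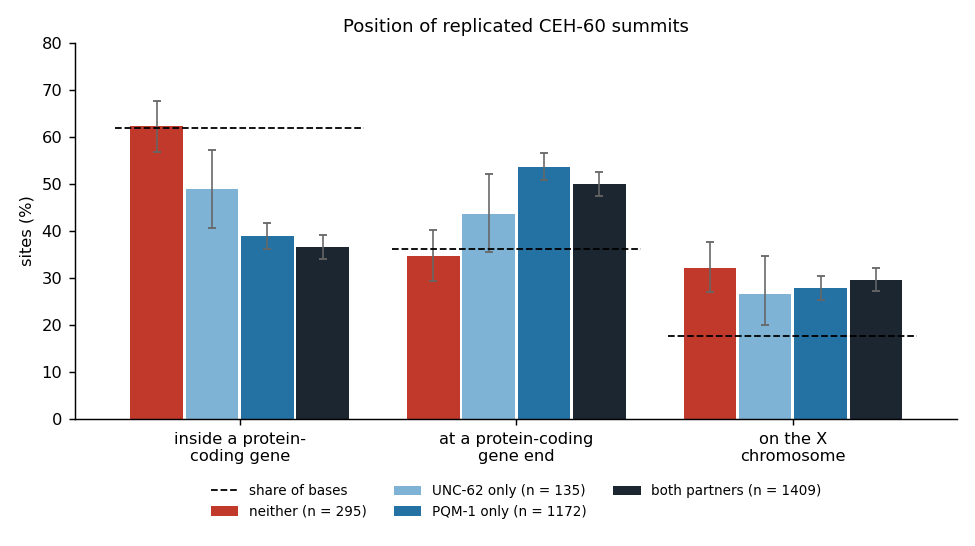
Share of replicated CEH-60 summits inside a protein-coding gene, at a gene end and on the X chromosome, by partner class, with Wilson 95% intervals; dashed lines give the share of bases. For sites with neither partner, the shares inside genes (62.4%) and at gene ends (34.6%) lie near those of the bases (61.9 and 36.2%), and the share on X (32.2%) lies above (17.7%).

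The X chromosome held 95 of the 295 sites (32.2%, 27.1 to 37.7%), against 24.6% of all replicate 1 peaks and 17.7% of bases. Sites with either partner were on X in 28.7% of cases, and the interval of the difference spanned 0 (3.52 points, -1.84 to 9.30). Sites with neither partner were on X in 38 of 91 cases (41.8%) in the lowest quartile of replicate 1 fold and in 7 of 31 (22.6%) in the highest, while sites with either partner stood at 25.5 and 32.5%. The other chromosomes held 37 sites (I), 50 (II), 28 (III), 33 (IV) and 52 (V).

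Strong sites inside genes lay in genes of several roles. After srap-1 and frpr-7, the strongest lay inside npr-37 (12.5-fold in replicate 1, IV 479751 to 480233), igcm-4, an immunoglobulin-like adhesion gene (12.3, X 2045189 to 2046132), plpr-1 (12.3), gei-1 (12.2, III 3345606 to 3346390), F55D12.2 (11.98) and gss-1, the glutathione synthetase gene (11.95, II 9415339 to 9416099). They were followed by jkk-1, a kinase gene of the JNK pathway (11.9, X 5368920 to 5369559), unc-73, a guanine nucleotide exchange factor gene of axon guidance (11.9, I 4028939 to 4029712), F56A8.3 (11.6), eat-17 (11.3), zoo-1, the homologue of the junction protein ZO-1 (11.3, I 14535540 to 14536172), lpr-6, a lipocalin-related gene (11.3), immt-1 (11.2), hpx-2, a haem peroxidase gene (11.2), and tes-1, the testin homologue (11.1). All had an mIgG1 and a DLS396 peak, with folds of 8.18 or more in both. Genes that hold a site were named by this order after their values were seen.

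Among sites at a gene end the strongest lay by str-264, a chemoreceptor gene (12.3-fold, V 15492495 to 15493104), by drd-10 and C33G8.2 (12.2, V 7008853 to 7009487) and at F35C8.8 (11.9), which is the site inside jkk-1. The str-264 site had a fold of 2.50 in replicate 2, 11.7 with mIgG1 and 19.3 in DLS396. Further down were B0496.2 (11.1), at the site inside tes-1, C13B9.2 (10.96), C07G3.8 and C07G3.10 (10.7), gpx-5, a glutathione peroxidase gene (10.3), cpn-4, a calponin family gene, with F49D11.10 (10.2), nobh-1 (10.2) and M88.4 (9.79). Then came Y37F4.1 (9.79), C06G1.1 (9.72), F48F7.6 (9.65), T04F8.2 (9.52), baz-2 (9.49), dep-1 (9.35), rtkn-1 (9.27), math-16 (9.24), symk-1, the symplekin gene (9.23), and arrd-9, an arrestin domain gene (9.03). Of these 20, T04F8.2, baz-2, dep-1 and math-16 had a DLS435 peak and none had a DLS422 peak. The strongest sites with no protein-coding gene by either measure, after V 7825666 and I 2278119, lay at V 5321058 to 5321810 (11.2), IV 15975294 to 15975943 (10.95) and V 20746767 to 20747309 (10.9).

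Of the 19971 protein-coding genes, 137 (0.686%) had such a site at an end and 180 (0.901%) held a summit, 286 in all (1.43%). Among the 137, 13 also had a replicated site with a partner at an end, and among the 180, 53 had one at an end or inside. The genes ajm-1, an apical junction gene, egl-8, a phospholipase C gene, ent-2, abu-2, hsp-1 and hsp-90 each held a pair of sites. The sites in ajm-1 had replicate 1 folds of 9.71 and 8.14, those in egl-8 9.86 and 6.502, and those in abu-2 6.16 and 5.95.

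At the yolk protein genes, sites with neither partner lay beside partnered ones. Inside vit-1, vit-2 and vit-3 lay weak sites with neither partner, at X 7730123 to 7730858 (3.56-fold in replicate 1, 1.89 in replicate 2, 3.28 in DLS396 and 1.78 in DLS435), X 5104182 to 5104746 (3.08, 2.09, 7.13 and no peak) and X 3571282 to 3571922 (5.61, 2.25, 4.86 and no peak). None of the 3 had an mIgG1 peak, and the nearest partner peak lay 153 to 1955 bp away. A further site, at X 7731771, lay at an end of vit-1 and of set-12 (4.81). All 6 vitellogenin genes had a partnered replicated site at an end. Reads that match several near-identical vitellogenin copies could have been placed at any of them, and the sources used here do not say how they were assigned.

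Partnered replicated sites lay at an end of 8.68% of protein-coding genes. Among lists of intestinal and metabolic genes they lay at an end of 8 of 12 intestine markers, 11 of 23 fatty acid synthesis and desaturation genes, 12 of 36 innate immune effectors, 9 of 17 aspartyl proteases, 6 of 10 dod genes, 3 of 10 lipases, 2 of 11 lipid binding genes, 9 of 74 cytochrome P450 genes and 4 of 26 fatty acid oxidation genes. Sites with neither partner lay at an end of, or inside, 3 of 6 vitellogenin genes, 2 of 26 fatty acid oxidation genes and 0 genes of each of the other lists just named. With a background of 1.43%, counts of 0 in lists this short cannot be told apart from the genome's share. Of the 40 gene lists, 21 had no member at such a site.

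Regulators with a site inside were tra-1, a zinc finger gene of sex determination (7.26-fold, III 11186904 to 11187743), sek-1, a kinase gene of p38 immune signalling (6.93), lin-29, a zinc finger gene of the larval to adult switch (6.11), and daf-12 (5.51). tir-1, which acts upstream in the same p38 pathway, had one at an end (4.05). The counts at an end or inside were 2 of 14 regulators of vitellogenesis and sex, 2 of 12 immune regulators and 1 of 16 stress and longevity factors, and nothing is read from counts this small beside the 1.43% of all protein-coding genes. In fatty acid oxidation 2 of 26 genes were touched by 1 site, at an end of acox-1.1 and inside acox-1.2 (7.67, I 12942152 to 12942989), which is among the 31 sites in all 5 CEH-60 lists.

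Of the larger families, 3 of 269 nuclear hormone receptor genes were touched, nhr-48 (7.94), nhr-59 (6.64) and nhr-54 (3.97). For C-type lectins the count was 3 of 239, with clec-64 and clec-65 at 1 site (6.02) and clec-196 (2.64). F-box genes stood at 5 of 327, led by fbxc-48 (8.28) and fbxb-117 (7.87), and chemoreceptors at 3 of 1308, with str-264, srw-119 (8.14) and srw-10 (4.11). Glucuronosyltransferases stood at 2 of 67 (ugt-51 8.14, ugt-25 4.13), transporters at 2 of 73 (aat-3 8.60, slc-17.1 5.06), DnaJ chaperones at 2 of 29 (dnj-8 2.69, dnj-13 2.54) and glutathione S-transferases at 1 of 44 (gst-11 6.63). The transthyretin-like genes had 1 of 58 (ttr-14 3.15), the neuropeptides 1 of 109 (nlp-89 7.33) and the rpl genes 1 of 48 (rpl-3 4.05). Collagens (0 of 156), histones (0 of 72), insulin-like peptides (0 of 38), homeobox genes named ceh (0 of 64), Hox, PBX and MEIS genes (0 of 11) and vacuolar ATPase subunits (0 of 20) had none. The same held for rps genes (0 of 30), dhs genes (0 of 30), Hedgehog-related genes (0 of 59) and ligand-gated and potassium channels (0 of 100). Markers of other tissues had 1 of 12 for body muscle (mlc-1 5.06) and 1 of 16 for the germline (mex-5 8.05), and 0 of 16 for neurons, 0 of 10 for the hypodermis and 0 of 7 for the pharynx. The chemoreceptor share, 3 of 1308, lay below the background of 1.43%, and this was not tested. Partnered replicated sites at their ends (37 of 1308) were also below the 8.68% of all protein-coding genes. For the other lists, with counts this small, nothing is read about a family.

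The sites at heat shock protein genes were weak in replicate 1. Both touched members, of 24, were hsp-1, a constitutive Hsp70 gene, and hsp-90, and each held a pair of sites. The hsp-90 sites had replicate 1 folds of 2.36 and 2.07 and overlapped the same replicate 2 peak, of fold 2.35. The hsp-1 sites had folds of 2.17 and 1.94 in replicate 1 and 2.16 and 2.30 in replicate 2. These 4 sites ranked from 8718 to 8998 among the 9008 replicate 1 peaks. The replicate 2 peaks they overlapped stood near the sites' median of 2.24, and none of the 4 had a peak with mIgG1, in DLS396, in DLS435 or in DLS422. A further site at an end of hsp-1 and clec-196 (IV 17278183 to 17278981) had folds of 2.64 in replicate 1 and 1.86 in replicate 2, ranked 8190 and had a DLS396 peak (3.27). Together with sites by dnj-13 (2.54) and inside tos-1 (2.03) and ant-1.1, a mitochondrial adenine nucleotide transporter gene (1.95), the 4 sites inside the hsp genes made up 7 of the 10 sites missing from DLS396. Neighbouring sites in 1 gene are not independent of each other.

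Genes for structural RNAs (tRNA, snoRNA, snRNA, rRNA and scRNA) lay within 200 bp of 3 of 295 summits (1.02%, 0.346 to 2.95%), and of 25 of 2716 summits with either partner (0.920%). Pseudogenes did so at 13 of 295 (4.41%, 2.59 to 7.39%) and 33 of 2716 (1.22%, 0.867 to 1.70%).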

How the data were processed

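The 8 peak lists of the 10 samples were used as deposited; the 2 input samples were not analysed here. The tools that the submitters' processing notes name are deepTools, MACS2, SAMtools and Bowtie2, without versions; genome build, control library and duplicate handling were not given in the sources used here. Lists belong to single samples. The authors' deposited fold is a linear ratio of summit signal to local background, the −log10 p and −log10 q-values deposited refer to the summit, and the deposited score is 10 times the −log10 q, shortened to a whole number. Fold and −log10 q were used. Depth is unknown.

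Peaks of the 6 nuclear chromosomes were compared by overlap of 1 bp or more, with coordinates 1-based. Where several peaks of a list overlapped a site, the highest fold was taken. Gene names and positions came from a RefSeq table of WBcel235, with 19971 protein-coding genes. Its frame was checked by shifting the summits of each list in steps of 50 bp over 1000 bp to either side, and the most summits lay outside genes at a shift of 0 in every list. Bases were counted up to the last annotated gene of each chromosome. Of 238 names in the gene lists, 238 were found. Intervals cover 95%. Functions were tested on simulated intervals. Python 3.11.15, numpy 2.4.6, pandas 2.3.3, scipy 1.17.1, statsmodels 0.14.6 and matplotlib 3.10.9 were used.

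Sites, gene lists and measures were chosen with earlier results of these data known. Named genes are the 20 sites of highest replicate 1 fold at a gene end, the 5 each of highest replicate 2, DLS435 and DLS422 fold, the 5 strongest without a protein-coding gene, and up to 4 members per gene list; hsp-1 and hsp-90, the sites inside genes and the pairs were added after their values were seen. A planned motif search in promoters was not run, since no promoter sequence was used here, and no sequence is printed.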

Additional observations from a re-analysis of the deposited data

How the results depend on the processing

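The number of sites was 129 with an overlap of 50% of both replicate peaks, and between 403 (without replicate 1) and 4037 (without replicate 2) when 1 replicate alone was used. With the 50% overlap the shares were 75.2% with mIgG1, 16.3% in DLS422, 38.0% on X and 43.4% at a gene end. Without partner peaks within 500 bp they were 86.8% with mIgG1 and 7.17% in DLS422. With a −log10 q of 5 or more in both replicates they were 88.4% with mIgG1 and 99.2% in DLS396, and with partner peaks limited to a −log10 q of 5 or more, 77.8% with mIgG1 and 14.9% in DLS422. With no partner peak within 2000 bp, an alternative chosen after seeing the data, they were 89.4% with mIgG1, 98.2% in DLS396 and 5.99% in DLS422. With 1 replicate left out, the range was 30.1 to 65.0% with mIgG1, 80.8 to 85.6% in DLS396, 1.26 to 13.9% in DLS435, 6.49 to 12.4% in DLS422, 25.2 to 35.2% on X, 37.0 to 49.4% outside genes and 34.7 to 44.5% at a gene end. A window of 500 bp put 21.4% at a gene end. The cause of these shifts was not tested. Against sites with either partner, the mIgG1 difference of 2.45 points, whose interval spanned 0, was 11.3 and 11.8 points in the lowest quartiles 1 and 2 of replicate 1 fold, with intervals above 0. The DLS396 difference of -2.87 points was 0.0 in quartile 2 and turned to 0.149 and 0.139 points in quartiles 3 and 4. The difference inside genes was 11.3 points in quartile 3 (-0.0266 to 22.6), and that at gene ends -7.45 points in quartile 1. Of 28 differences under an alternative, 20 kept their direction and their interval's side of 0, among them all 8 in DLS435 by fold quartile, and the mIgG1 difference was 0.0 in quartile 4. Of 63 shares and counts, 37 lay within the 95% interval of the reported share (for counts, within 1.5 times) and 26 outside. The quartiles of replicate 2 fold and those for gene positions were also chosen after seeing the data. No paired analysis was possible because no groups compared share 2 replicate numbers. Since each list is 1 library and its depth is unknown, an absent peak and a list that recovered less cannot be told apart.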
